A study of Mus musculus with 31 samples.

Results

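Calcium handling and excitation-contraction coupling was followed through 10 genes in the mouse masseter muscle (MM): Casq1, Casq2, Ryr1, Atp2a1, Atp2a2, Pvalb, Cacna1s, Cacng1, Trdn and Jph2. The genes were chosen by name for their role, with earlier results of these data known. They are 10 of the 22609 gene symbols in the deposited count tables, and all 10 had enough reads to be tested in every comparison. Each of 31 male C57BL/6J mice, given as adults of 2 to 4 months in the methods, gave 1 bulk poly(A) RNA-seq library of dissected MM. The mice had 1 injection into the MM. In the CFA experiment this was complete Freund's adjuvant (CFA, an emulsion of killed mycobacteria used to provoke inflammation), with MM taken at 1d (3 mice) or 5d (3 mice), or vehicle (3 mice). In the Col experiment it was collagenase type 2 (Col, an enzyme preparation that digests connective tissue) at 0.2U, in groups titled 1C (4 mice) and RPC (4 mice), or at 10U, titled 2d (4 mice), 6d (3 mice) and 12d (4 mice), or vehicle (3 mice). The group titled Contr was taken as the Col vehicle group because the other vehicle group is titled CFA_control. No label states this match. The day of the 1C and RPC groups and of both vehicle groups is not given in the labels. The days of the sample titles are used here. For the first and the last of the 10U groups they differ from the days in the methods, which are earlier and later, respectively.

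When a muscle fibre is excited, the voltage sensor in the transverse tubule, built from Cacna1s and partner subunits such as Cacng1, opens the release channel Ryr1 in the facing sarcoplasmic reticulum. Junctophilin 2 (Jph2) holds the facing membranes together, triadin (Trdn) anchors calsequestrin to the release channel, and calsequestrin (Casq1 in fast fibres, Casq2 in heart and slow fibres) stores the calcium. The pumps Atp2a1 (SERCA1, of fast fibres) and Atp2a2 (SERCA2, of heart, slow fibres and most other cells) return calcium to the store, and parvalbumin (Pvalb) buffers it in fast fibres. The mouse MM is almost purely a fast muscle.

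The promoters of both calsequestrin genes and of Atp2a1 are shown as examples, chosen with the results known. Pvalb, which had the lowest log2 fold change of the 10 genes at 10U Col 2d, is not among them. They are the 250 bases before the RefSeq start, on GRCm38.p6, 5′ to 3′ on the strand of the gene. Capitals mark the E-box (CANNTG), bound by myogenic bHLH factors, and the MEF2 consensus. The windows are chr1:172219896-172220145 on the minus strand for Casq1, chr3:102086165-102086414 on the plus strand for Casq2 and chr7:126463074-126463323 on the minus strand for Atp2a1.
Casq1: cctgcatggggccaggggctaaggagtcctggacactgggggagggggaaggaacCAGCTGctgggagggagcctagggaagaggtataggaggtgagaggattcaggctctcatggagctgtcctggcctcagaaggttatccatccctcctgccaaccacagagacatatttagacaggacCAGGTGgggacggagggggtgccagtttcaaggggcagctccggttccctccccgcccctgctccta
Casq2: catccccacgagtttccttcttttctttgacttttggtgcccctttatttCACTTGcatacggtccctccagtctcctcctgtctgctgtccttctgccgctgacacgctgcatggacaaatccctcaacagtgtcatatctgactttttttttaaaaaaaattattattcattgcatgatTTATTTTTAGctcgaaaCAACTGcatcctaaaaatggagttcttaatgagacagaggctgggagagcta
Atp2a1: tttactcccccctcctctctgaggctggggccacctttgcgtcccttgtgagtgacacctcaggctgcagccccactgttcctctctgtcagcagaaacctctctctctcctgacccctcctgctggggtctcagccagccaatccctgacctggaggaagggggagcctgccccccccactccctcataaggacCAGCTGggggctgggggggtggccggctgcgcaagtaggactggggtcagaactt

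Casq2 held 1 MEF2 consensus, beginning 69 bases before the start, and E-boxes beginning 200 and 52 bases before it, and these letters did not overlap. Casq1 held 2 E-boxes and Atp2a1 held 1, and neither held the MEF2 consensus. RefSeq gave windows for 7 of the 10 genes, 9 windows in all, counting both windows of Jph2 and of Pvalb. The E-box was in 7 of the 9 windows and in 66.2% of all 32851 promoter windows of the same length, searched on both strands. The MEF2 consensus was in 2 of the 9, those of Casq2 and 1 of Pvalb, and in 2.92% of all windows. The MCAT letters CATTCC were in 1 window, that of Cacna1s, and in 12.6% of all windows. A match says only that the letters are there.

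Between 14843778 and 29076671 reads per library fell on genes, with a median of 20834472, and each of the 10 genes had at least 323 reads in every library. Salivary gland markers stood apart. Their summed level ranged from 10.7 to 31.6 CPM (read counts of a gene scaled to library size, with TMM factors) at 10U Col 6d, yet reached 146474 CPM in 1 mouse of 0.2U Col RPC, 71552 CPM at CFA 5d and 54529 CPM in the Col vehicle group. The part of these in the results below was not tested. All 11 libraries of 10U Col had 0.559 to 0.703% of reads ambiguous between genes, against 0.125 to 0.260% in the 20 other libraries, so that the counting cannot be told apart from the treatment in 10U Col against vehicle. The comparisons of 10U Col 6d with 2d and of 12d with 6d are within these 11 libraries. In bulk tissue, fewer muscle fibres and less RNA per fibre cannot be told apart.

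In vehicle-treated MM the fast members had the highest levels. Compared per exon length over the 6 vehicle-treated mice of both experiments, Pvalb had 11818 ± 4431 RPKM (SD, n = 6), Atp2a1 9717 ± 3037 RPKM and Casq1 2113 ± 556 RPKM. The spreads of Pvalb and Atp2a1 overlapped, and both lay above Casq1. Cacng1 had 625 ± 235 RPKM, Ryr1 265 ± 75.3 RPKM, Cacna1s 178 ± 51.9 RPKM, Jph2 167 ± 49.1 RPKM and Trdn 125 ± 36.4 RPKM. The last 3 did not differ beyond their spread, and the spread of Ryr1 overlapped those of Cacna1s and Jph2. The slow or cardiac forms were lowest, with 23.8 ± 3.70 RPKM for Atp2a2 and 15.0 ± 4.35 RPKM for Casq2. None of the 10 differed between the Col and CFA vehicle groups with edgeR's quasi-likelihood test, where 0 had an unadjusted p under 0.05 (2.32% of all genes) and 0 were called by DESeq2 (0.408% of all genes). There 0.0426% of all tested genes were called, a call being a Benjamini-Hochberg adjusted p under 0.05 over all tested genes.

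After the 10U dose the genes did not move as one. Values of the fast members were lower at 10U Col 2d and nearer to vehicle at 12d, Atp2a2 was higher at 2d and 6d, and Casq2 was high at 6d. At 6d, 4 of the 10 genes passed the test against the Col vehicle group: Casq2 and Atp2a2 rose, while Cacna1s and Jph2 fell. Among all 14281 genes tested there 27.3% were called, 14.0% higher and 13.3% lower, against which the 4 of 10 are to be read. The median of the log2 fold changes over the 10 was -1.06, beside 0.01 over all genes. In 8 of the 10 the groups did not overlap, as in 47.2% of all genes. At 2d, 0 of 10 were called by edgeR's quasi-likelihood test (2.22% of 14373 genes called), while 8 had an unadjusted p under 0.05 (33.3% of all genes) and DESeq2 called 8 (18.3% of all genes). The groups did not overlap in 7 (24.2% of all genes), and the median was -1.31, beside 0.02 over all genes.

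**Figure D1:**
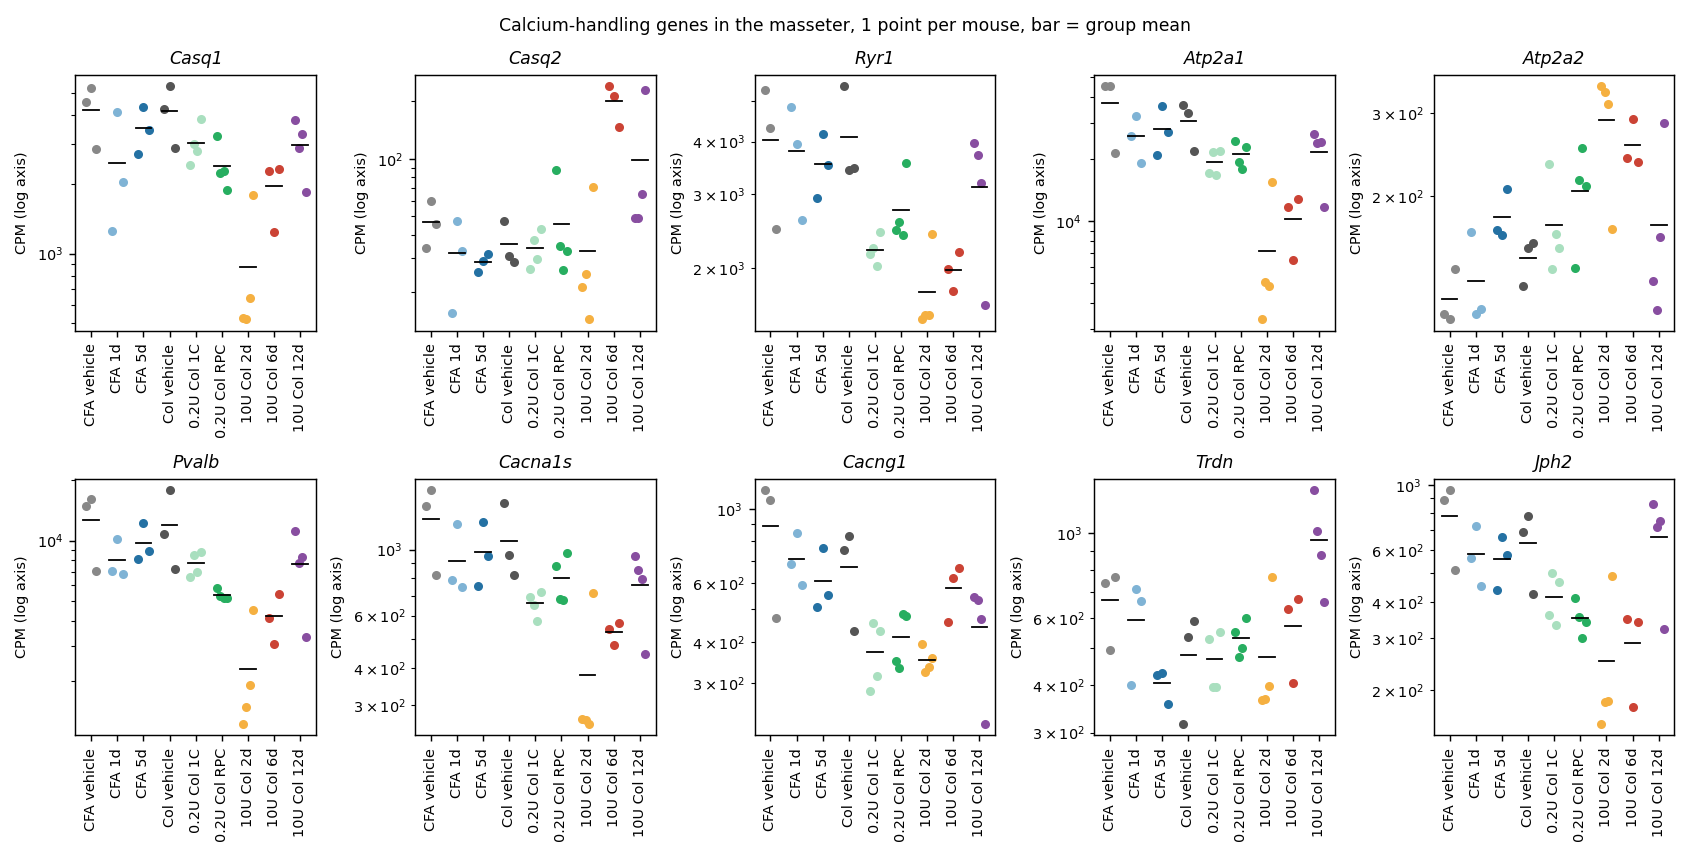
CPM of each of the 10 genes on a log axis, with 1 point per mouse, the 9 groups along the horizontal axis and a bar at the group mean. Casq2 lies between 146 and 241 CPM in all 3 mice of 10U Col 6d, above every vehicle-treated mouse, and the fourth mouse of 10U Col 2d lies away from the other 3 in most panels.

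Casq2 was the member with the largest rise at 6d. Its level was 47.1, 30.9 and 28.8 CPM in Col vehicle mice 1 to 3, and 241, 214 and 146 CPM in the mice at 6d, so that the groups did not overlap. The log2 fold change was 2.47 ± 0.28 (SE), which is 5.53-fold, with an adjusted p of 0.00283 in edgeR's quasi-likelihood test (n = 3 and 3). At 2d the values were 21.1, 24.8, 14.4 and 71.0 CPM, the first 3 mice below every vehicle-treated mouse and the fourth above them. The direct comparison of 6d with 2d, which stays within the 10U libraries, gave 2.62 ± 0.53 (adjusted p = 0.0284), and Casq2 was the 1 member called there, where 8.73% of all genes were called. That call was lost (adjusted p from 0.0605 to 0.111) without mouse 1 or 2 at 2d or without any 1 mouse at 6d. Against vehicle at 6d, Casq2 was called with every mouse left out in turn.

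Casq1, the fast calsequestrin, lay below vehicle at both 2d and 6d. Its level was 4258, 5328 and 2877 CPM in the Col vehicle group and 528, 519, 642 and 1797 CPM at 2d. All 4 mice lay below the vehicle group, although the fourth had more than 2 times the level of the others. The log2 fold change at 2d was -2.28 ± 0.54 (adjusted p = 0.0560), and without mouse 4 it was -2.92 ± 0.29 (adjusted p = 0.00103). At 6d the mice had 2288, 1246 and 2337 CPM, again below all vehicle-treated mice, with a log2 fold change of -1.09 ± 0.40 (adjusted p = 0.0772). At 12d the values were 3815, 2863, 3292 and 1843 CPM, which overlapped those of vehicle.

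The share of Casq2 in the pair, from RPKM, set both genes against each other within a library and so does not depend on how libraries were scaled. Casq2 made up 0.793%, 0.418% and 0.719% of the summed RPKM of Casq1 and Casq2 in the Col vehicle group, 2.81%, 3.34%, 1.59% and 2.78% at 2d, and 7.07%, 11.04% and 4.33% at 6d. Neither 10U group overlapped the vehicle group. The log2 ratio was higher by 2.06 at 2d (exact permutation test, 2-sided p = 0.0571) and by 3.59 at 6d (exact permutation p = 0.100), and both p-values are the smallest that these numbers of mice allow, so that no p under 0.05 was possible. Over the 22 such tests made here the adjusted p-values were 0.251 and 0.275. At 12d the share was 0.914%, 1.22%, 1.41% and 8.31%, with mouse 4 in the range of 6d. Every mouse at 12d lay above the Col vehicle group (log2 ratio higher by 1.65, exact permutation p = 0.0571). In 0.2U Col RPC the share was 1.92%, 1.12%, 0.820% and 1.24%, also above every Col vehicle mouse. There the log2 ratio was higher by 0.98 (exact permutation p = 0.0571, adjusted p = 0.251). The 0.2U Col 1C group overlapped vehicle. In the CFA vehicle group the share was 0.537 to 1.14%, which overlapped the ranges of both 10U Col 12d and 0.2U Col RPC. The ratios were examined after the levels of the genes had been seen.

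Atp2a2, the pump of slow fibres, heart and most other cells, was 130, 156 and 160 CPM in Col vehicle mice, 341, 332, 313 and 171 CPM at 2d and 240, 291 and 236 CPM at 6d. Every mouse at 2d and 6d was above every vehicle-treated mouse. It rose at 6d by 0.76 ± 0.18 on the log2 scale, 1.70-fold (edgeR's quasi-likelihood test, adjusted p = 0.0229). At 2d the log2 fold change was 0.92 ± 0.27 (adjusted p = 0.0742), and it was 1.10 ± 0.15 (adjusted p = 0.00250) without mouse 4. With 1 mouse left out the call at 6d was lost in 4 of 6 fits: without vehicle mouse 1 (adjusted p = 0.0753) or 2 (0.0537), or without 6d mouse 1 (0.06996) or 2 (0.0871).

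Atp2a1, the fast pump and the most abundant member by reads, was 36457, 33298 and 21795 CPM in Col vehicle mice and 3346, 5070, 4841 and 15414 CPM at 2d. At 6d it was 11648, 6502 and 12732 CPM. No mouse of either group reached the vehicle range. Log2 fold changes were -2.12 ± 0.63 at 2d (adjusted p = 0.0753, and -2.83 ± 0.34 with adjusted p = 0.00164 without mouse 4) and -1.58 ± 0.52 at 6d (adjusted p = 0.0562). An antisense gene, Rabep2, overlaps 21.9% of the Atp2a1 exon bases (chr7:133589372-133606622, minus strand, mm9). Other genes overlap 7.89% of the Casq1 exon bases (Gm17224) and 1.95% of those of Ryr1 (Gm16799), and whether the counting used the strand is not stated in the sources used here. On mm9, Casq1 spans chr1:174140025-174150026 and Ryr1 chr7:29788359-29910170, both on the minus strand. Of the 4 genes called at 6d, Casq2 spans chr3:101890338-101950437 on the plus strand, Cacna1s chr1:137949327-138016399 on the plus strand, Atp2a2 chr5:122903531-122952183 on the minus strand and Jph2 chr2:163161978-163223729 on the minus strand.

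In the pump pair, the share of Atp2a2 in the summed RPKM was 0.218%, 0.286% and 0.448% in the Col vehicle group. It was 5.89%, 3.87%, 3.82% and 0.676% at 2d and 1.25%, 2.67% and 1.13% at 6d. Both groups lay wholly above vehicle, with log2 ratios higher by 3.24 (exact permutation p = 0.0571) and 2.38 (exact permutation p = 0.100). The pump share was highest at 2d and the calsequestrin share at 6d. Between 6d and 2d the calsequestrin ratio was higher by 1.53 with no overlap (exact permutation p = 0.0571), and the pump ratio differed by -0.86 with overlapping groups (exact permutation p = 0.457).

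**Figure D2:**
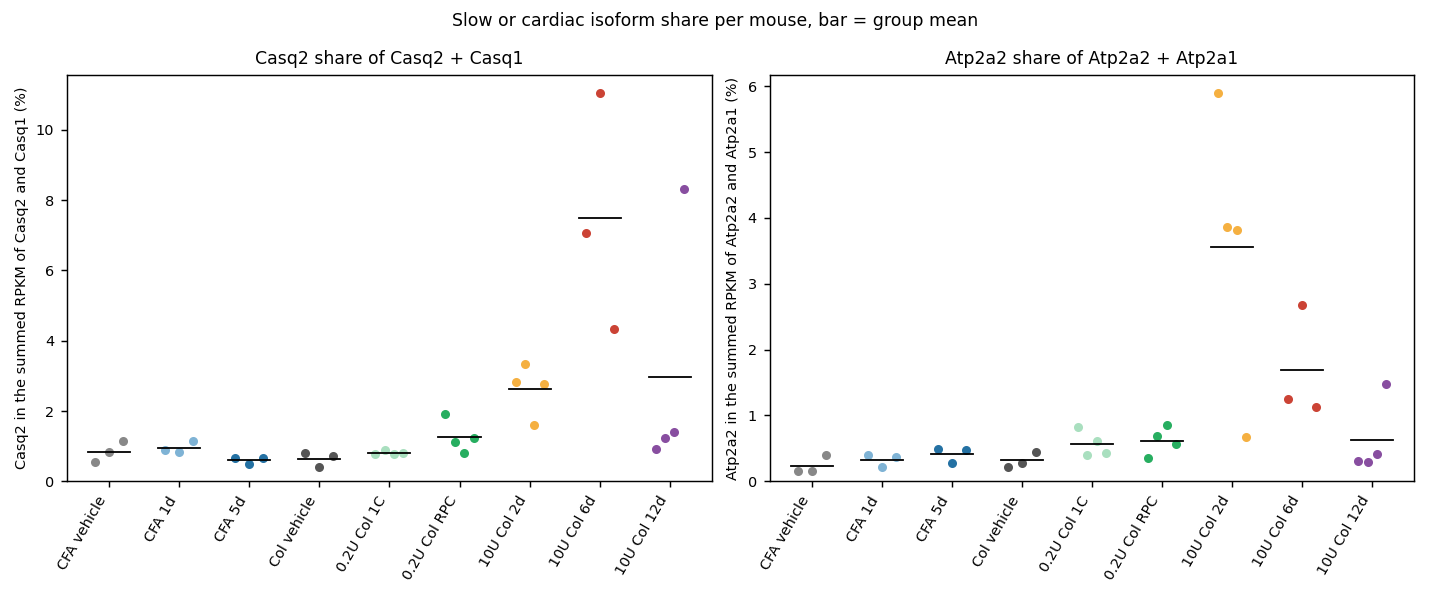
Share of the slow or cardiac form in the summed RPKM of each pair in percent, with 1 point per mouse and a bar at the group mean: Casq2 of Casq1 and Casq2 on the left, Atp2a2 of Atp2a1 and Atp2a2 on the right. The 10U Col 6d mice reach 4.33 to 11.04% for Casq2, and 3 of 4 mice at 10U Col 2d reach 3.82 to 5.89% for Atp2a2.

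Pvalb, the calcium buffer of fast fibres, was 10799, 17782 and 7208 CPM in the Col vehicle group and 1228, 1477, 1904 and 4524 CPM at 2d. Its log2 fold change of -2.40 ± 0.58 at 2d was the lowest of the 10 genes (adjusted p = 0.0578, and -2.99 ± 0.40 with adjusted p = 0.00225 without mouse 4). At 6d the mice had 4119, 3067 and 5402 CPM, below the vehicle range, with a log2 fold change of -1.51 ± 0.48 (adjusted p = 0.0518).

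Of the voltage sensor, Cacna1s, the pore subunit, fell at 6d. It was 1430, 959 and 819 CPM in the Col vehicle group and 540, 476 and 566 CPM at 6d, with no overlap and a log2 fold change of -1.04 ± 0.29 (adjusted p = 0.0344). That call was kept only without Col vehicle mouse 2 or 3. The adjusted p was 0.0816 without vehicle mouse 1 and 0.116, 0.121 and 0.0819 without 6d mouse 1, 2 and 3. At 2d the values were 270, 267, 260 and 715 CPM, the fourth just below the lowest vehicle-treated mouse, for a log2 fold change of -1.54 ± 0.45 (adjusted p = 0.0725). Cacng1, its gamma subunit, was 751, 833 and 431 CPM in vehicle, 394, 324, 337 and 357 CPM at 2d and 459, 619 and 664 CPM at 6d. At 2d it lay below vehicle in all 4 mice (log2 fold change -0.96 ± 0.26, adjusted p = 0.0666), and at 6d the groups overlapped (-0.22 ± 0.30, adjusted p = 0.592). Cacng1 was the 1 gene among the 10 in which mouse 4 at 2d lay within the range of the other 3 mice.

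Ryr1, the release channel, was 5419, 3429 and 3471 CPM in vehicle and 1515, 1549, 1551 and 2413 CPM at 2d. At 6d it was 1988, 1772 and 2186 CPM, so that neither 10U group overlapped vehicle. Log2 fold changes were -1.27 ± 0.35 (adjusted p = 0.0685) and -1.07 ± 0.35 (adjusted p = 0.0534). Jph2, the junctional tether, fell at 6d by 1.14 on the log2 scale (SE 0.35, adjusted p = 0.0464), from 692, 782 and 425 CPM to 349, 176 and 342 CPM. Its call was lost in 5 of 6 fits with 1 mouse left out (adjusted p from 0.0848 to 0.128) and kept without Col vehicle mouse 3. At 2d Jph2 was 154, 182, 184 and 488 CPM, and the fourth mouse alone overlapped vehicle (log2 fold change -1.36 ± 0.45, adjusted p = 0.0897).

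Trdn, which links calsequestrin to the release channel, differed from the other junctional genes. It was 317, 533 and 589 CPM in vehicle, 366, 367, 396 and 768 CPM at 2d and 632, 406 and 672 CPM at 6d, overlapping vehicle both times (log2 fold changes -0.05 ± 0.37 and 0.23 ± 0.32). At 12d it reached 1295, 1016, 879 and 658 CPM, above every Col vehicle mouse. That log2 fold change of 1.02 ± 0.33 did not pass edgeR's quasi-likelihood test (adjusted p = 0.185), and DESeq2 called it (adjusted p = 0.0230). It was also called in 1 fit over all 31 libraries, but not with both vehicle groups pooled. The CFA vehicle mice had 742, 493 and 767 CPM of Trdn, which overlapped 12d.

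**Figure D3:**
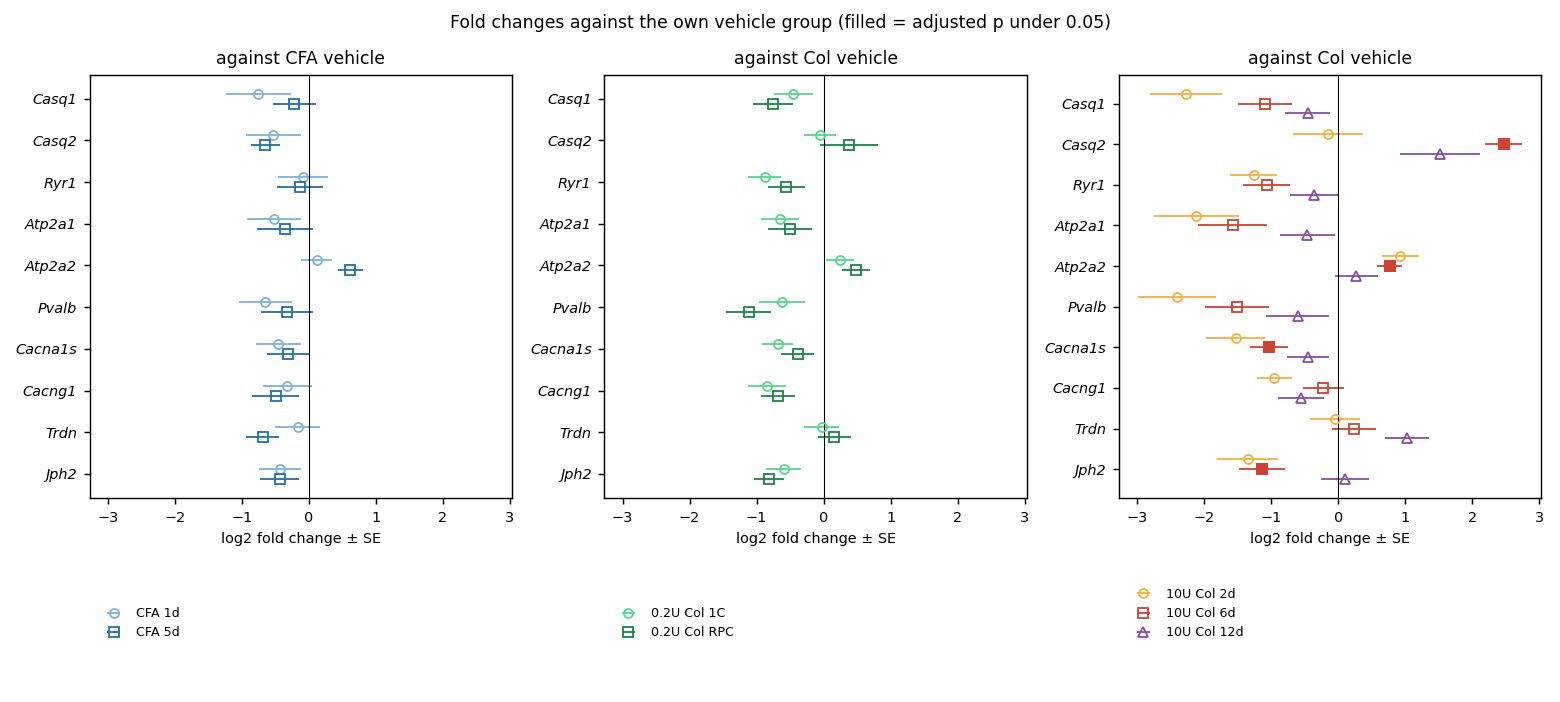
Log2 fold change of each gene against its own vehicle group, with bars of 1 SE and filled symbols for an adjusted p under 0.05 in edgeR's quasi-likelihood test; the panels show CFA 1d and 5d, 0.2U Col 1C and RPC, and 10U Col 2d, 6d and 12d. The filled symbols are Casq2, Atp2a2, Cacna1s and Jph2 at 10U Col 6d.

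Mouse 4 of 10U Col 2d carried much of the spread of its group. It held 27573542 reads on genes, the most of its group, and a salivary gland level of 65771 CPM against 44.3 to 37107 CPM in the others. Its Casq1, Ryr1, Atp2a1, Atp2a2, Pvalb, Cacna1s and Jph2 levels lay nearer to vehicle than those of the other 3 mice, and its Casq2 and Trdn levels lay above vehicle. Without it, 9 of the 10 genes were called at 2d, 8 lower and Atp2a2 higher, where 36.3% of all genes were called. Trdn was the exception (log2 fold change -0.39 ± 0.25, adjusted p = 0.255). Casq2 then also fell, with a log2 fold change of -0.88 ± 0.27 (adjusted p = 0.0409). Without this mouse, 6 of 10 genes were called higher at 6d than at 2d: Casq1, Casq2, Atp2a1, Pvalb, Cacna1s and Cacng1 (28.8% of all genes called).

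At 12d, 0 of 10 genes were called against vehicle by edgeR's quasi-likelihood test (1.23% of all genes called), while 2, Casq2 and Trdn, had an unadjusted p under 0.05 (17.4% of all genes) and DESeq2 called 1, Trdn (4.95% of all genes). The groups did not overlap in the same 2 genes, as in 17.0% of all genes. Casq2 was 48.7, 49.0, 65.0 and 231 CPM, so that mouse 4 lay in the range of the 6d mice and the other 3 just above the highest Col vehicle mouse. The log2 fold change was 1.51 ± 0.60 (adjusted p = 0.252) with all mice and 0.62 ± 0.23 (adjusted p = 0.220) without mouse 4, where again 0 of 10 were called (1.16% of all genes called). The same mouse had the lowest Casq1, Ryr1, Atp2a1, Pvalb, Cacna1s, Cacng1, Trdn and Jph2 and the highest Atp2a2 of its group, at 285 CPM against 115 to 164 CPM. Its regenerating fibre markers summed to 1920 CPM, against 484 to 770 CPM in the other 3 mice and 3123 to 5496 CPM at 6d.

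From 6d to 12d, 0 of 10 genes were called by edgeR's quasi-likelihood test (26.4% of all genes called), with 2 at an unadjusted p under 0.05 (44.0% of all genes) and 3, Atp2a1, Trdn and Jph2, called by DESeq2 (29.3% of all genes). In 0 of 10 did the groups stand apart, against 36.3% of all genes. Without mouse 4 of 12d, 8 of 10 were called (54.2% of all genes called). Atp2a1, Pvalb, Ryr1, Cacna1s, Trdn and Jph2 were then higher at 12d, by 0.72 to 1.42 on the log2 scale, while Casq2 (-1.88 ± 0.21, adjusted p = 0.000545) and Atp2a2 (-0.89 ± 0.17, adjusted p = 0.00325) were lower.

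**Figure D4:**
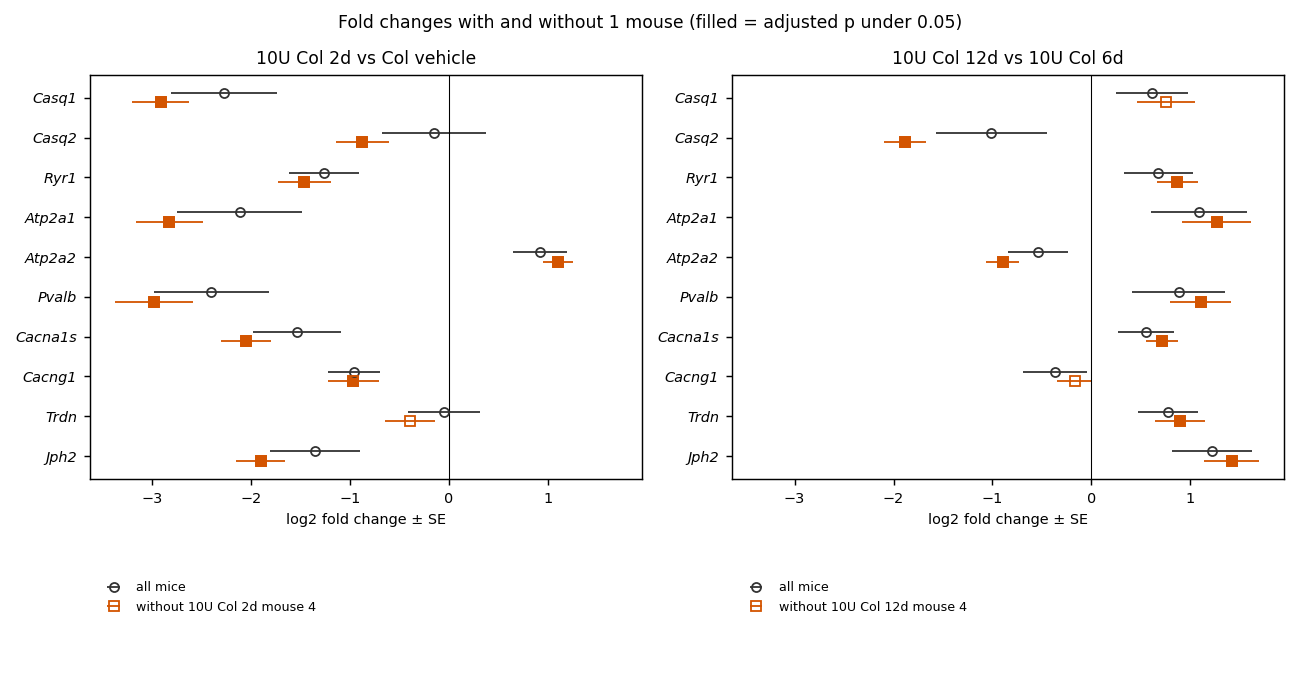
Log2 fold change with bars of 1 SE for the 10 genes, with all mice (circles) and without mouse 4 of 10U Col 2d or of 10U Col 12d (squares), filled where the adjusted p is under 0.05. Leaving out the mouse raises the number called from 0 to 9 in 10U Col 2d against vehicle and from 0 to 8 in 12d against 6d.

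The share of reads from muscle fibre genes also differed between the groups. Myofibre reference genes, a list of 14 contractile and metabolic fibre genes, took 3.95 to 5.16% of the reads at 2d, 5.35 to 7.19% at 6d and 6.33 to 10.6% at 12d. In the Col vehicle group they took 8.15 to 11.7%, which the 12d range overlapped. In 0.2U Col RPC they took 3.925 to 8.68%. At CFA 5d they took 5.865 to 8.105%, below the 8.531 to 13.77% of the CFA vehicle group, and edgeR called 0 members there. These are shares of all reads on genes, salivary gland reads included. Of these 14 genes, 3 fell at 2d and 6 at 6d, with none higher, and their median log2 fold changes were -1.58 and -1.26. Of all genes, 2.22% were called at 2d. At 6d 14.0% of all genes were called higher and 13.3% lower, against which the counts in this paragraph are to be read. Regenerating fibre markers summed to 359 to 971 CPM in the Col vehicle group and 3123 to 5496 CPM at 6d, where 7 of 8 rose and 0 fell. Slow fibre markers summed to 28.9 to 47.0 CPM in vehicle and 368 to 829 CPM at 6d, where 4 of 7 rose, among them Tnnt1, the slow troponin T (6.26 CPM on average in vehicle, 292 CPM at 6d). The other 3 slow fibre markers had log2 fold changes below 0 at 6d, and 0 of them were called. Macrophage and monocyte markers summed to 96.8 to 432 CPM in vehicle and 1053 to 2059 CPM at 6d, where 8 of 10 rose. Fibroblast markers summed to 1504 to 9330 CPM in vehicle and 15861 to 27470 CPM at 6d, where 3 of 8 rose and 0 fell. Neuron and Schwann cell markers summed to 372 to 1368 CPM in vehicle and 64.2 to 227 CPM at 6d, where 4 of 6 fell and 0 rose.

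Scaling each library to the summed reads of the myofibre reference, rather than by TMM over all genes, sets the genes against fibre RNA, called per fibre RNA here, although 6 reference genes themselves fell at 6d. It shifted the median log2 fold change of all genes to 1.40 at 2d, 1.12 at 6d and 0.46 at 12d, and of all genes called at 6d it turned 1994 higher and 1906 lower into 9130 higher and 291 lower. Per fibre RNA, 4 of 10 genes were called at 6d, all higher: Casq2 (log2 fold change 3.64, adjusted p = 0.000608), Atp2a2 (1.88, adjusted p = 0.00329), Trdn (1.24, adjusted p = 0.0162) and Cacng1 (0.95, adjusted p = 0.0161), where 66.0% of all genes were called. Of these, Casq2, Atp2a2 and Trdn lay above the shift of all genes and Cacng1 below it. Cacna1s and Jph2 were no longer called, at 0.10 and -0.04. Ryr1 was 0.05 and Casq1 0.00. Atp2a1 and Pvalb were not called, and their log2 fold changes stayed negative by this measure too.

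At 2d, 5 of 10 genes were called per fibre RNA (72.4% of all genes called). Casq1 (log2 fold change -0.996, adjusted p = 0.0370) and Pvalb (-1.10, adjusted p = 0.0324) were lower also by this measure, while Atp2a2 (2.35, adjusted p = 0.00434), Trdn (1.20, adjusted p = 0.0196) and Casq2 (1.11, adjusted p = 0.0336) were higher. Casq2 and Trdn stood below the shift of 1.40.

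**Figure D5:**
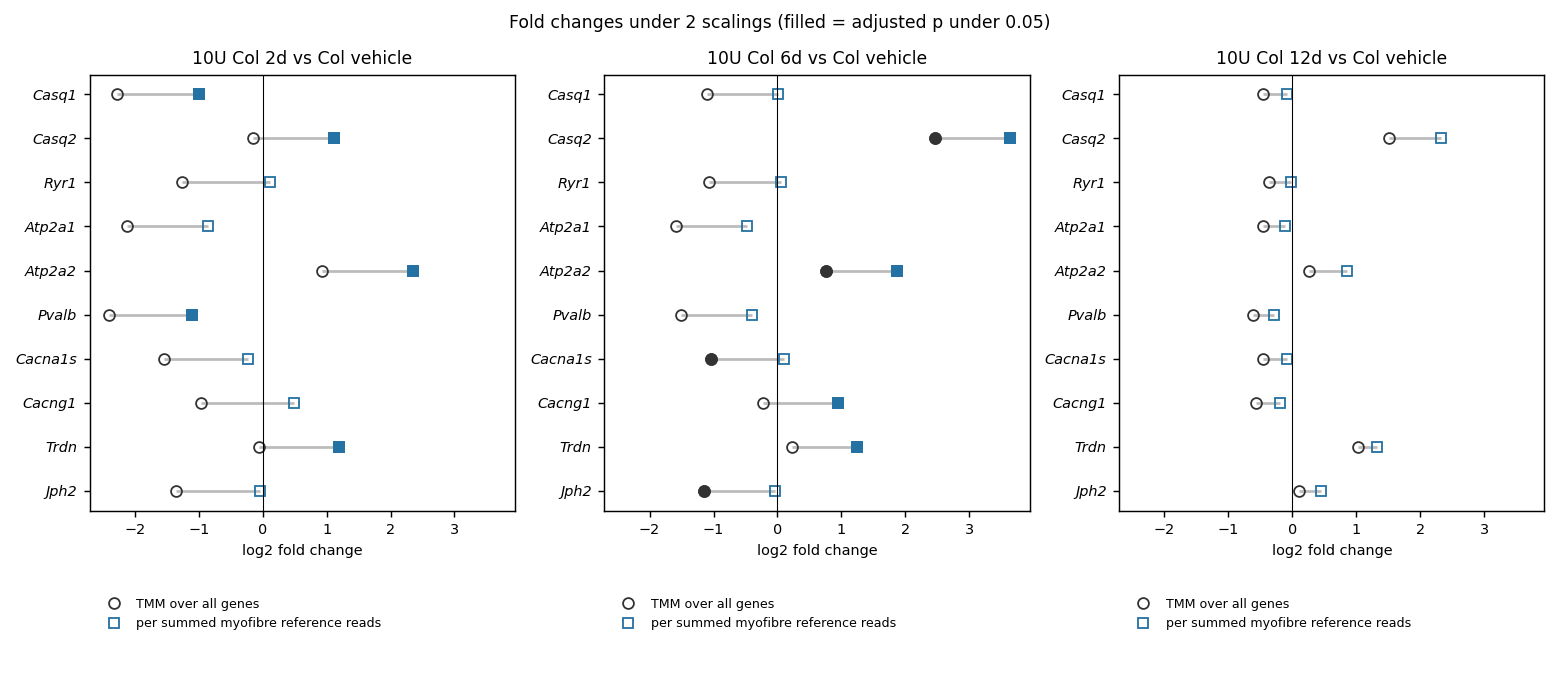
Log2 fold changes of the 10 genes in 10U Col 2d, 6d and 12d against vehicle, under TMM scaling (circles) and scaled to the summed myofibre reference reads (squares), filled where the adjusted p is under 0.05. At 6d all 10 genes move to the right, so that Casq1, Ryr1, Cacna1s and Jph2 lie near 0 while Casq2 reaches 3.64. Atp2a1 and Pvalb stay to the left of 0.

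The CFA experiment gave small values. At CFA 1d 0 of 10 genes were called with edgeR's quasi-likelihood test, 0 had an unadjusted p under 0.05 (4.22% of all genes) and 0 were called by DESeq2 (0.349% of all genes), while edgeR called 0% of 13944 genes. The groups overlapped in all 10 genes (6.18% of all genes did not overlap), and log2 fold changes ran from -0.75 for Casq1 to 0.11 for Atp2a2, with SEs of 0.23 to 0.48. At CFA 5d 0 were called (1.11% of all genes called), 3 had an unadjusted p under 0.05 (14.0% of all genes) and DESeq2 called 1, Trdn (5.13% of all genes). In 3 genes the groups did not overlap, as in 19.7% of all genes. Atp2a2 was 170, 166 and 207 CPM against 113, 110 and 141 CPM in the CFA vehicle group (log2 fold change 0.62 ± 0.19, adjusted p = 0.186). Casq2 was 25.3, 28.9 and 31.5 CPM against 34.2, 59.9 and 45.2 CPM (-0.65 ± 0.22, adjusted p = 0.233). Trdn was 425, 430 and 357 CPM against 742, 493 and 767 CPM (-0.69 ± 0.25, adjusted p = 0.267). The salivary gland level was 52407 to 71552 CPM at CFA 5d and 72.1 to 8202 CPM in its vehicle group, and its part in these differences was not tested. Between CFA 5d and 1d, 0 genes were called (5.84% of all genes called), with 1 at an unadjusted p under 0.05 (19.7% of all genes) and 0 called by DESeq2 (8.54% of all genes).

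After 0.2U Col, 0 of 10 genes were called in either group with edgeR's quasi-likelihood test, as were 0% of all genes. In 1C, 3 genes had an unadjusted p under 0.05 (12.6% of all genes), and DESeq2 called 1, Ryr1 (2.84% of all genes). Ryr1 was 2165, 2233, 2030 and 2443 CPM, all below the vehicle values given above (log2 fold change -0.88 ± 0.25, adjusted p = 0.276). Cacna1s, at 691, 651, 576 and 719 CPM, also lay below its vehicle group (-0.69 ± 0.24, adjusted p = 0.317). These were the 2 genes of the 10 whose groups did not overlap, as in 10.3% of all genes.

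In RPC, 4 genes had an unadjusted p under 0.05 (13.5% of all genes), and DESeq2 called 2, Pvalb and Jph2 (2.12% of all genes). Pvalb was 5817, 5332, 5175 and 5157 CPM (log2 fold change -1.12 ± 0.33, adjusted p = 0.286) and Jph2 412, 356, 301 and 342 CPM (-0.81 ± 0.22, adjusted p = 0.276). Both lay below every Col vehicle mouse, and these were the 2 genes whose groups did not overlap, as in 12.0% of all genes. Per fibre RNA the medians of the 10 genes were -0.05 in 1C and 0.01 in RPC, against -0.61 and -0.53 by TMM. All 14 myofibre reference genes had log2 fold changes below 0 in 1C and 12 of 14 in RPC, and 0 of them were called.

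Whether 10U Col differed from CFA was tested as an interaction, each treatment against its own vehicle group. For 10U Col 6d against CFA 5d, 1 of 10 genes was called, Casq2, with a difference of 3.11 ± 0.37 on the log2 scale (adjusted p = 0.00204, 11.3% of all genes called). It was called in all 12 fits with 1 mouse left out. Atp2a2, higher than vehicle in every mouse of both treatments, had a difference of 0.14 ± 0.25 (adjusted p = 0.745). For 10U Col 2d against CFA 1d, 0 were called with edgeR's quasi-likelihood test (0.0946% of all genes called), 3 had an unadjusted p under 0.05 (6.83% of all genes) and DESeq2 called 0 (0.567% of all genes). The days of the treatments differ, so that dose, agent and day cannot be told apart.

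The other genes of calcium handling were taken from 6 lists with 63 tested genes: partners of the voltage sensor, partners of the release channel, triad and tubule structure, calcium pump regulators, store-operated and mitochondrial entry, and calcium-dependent signalling. At 10U Col 6d, 5 of the 63 rose and 15 fell against vehicle, or 31.7% beside 27.3% of all genes, and the median over the 63 was -0.33 on the log2 scale. At 2d 2 fell and 0 rose, 3.17% beside 2.22% of all genes, and at 12d 0 were called, beside 1.23% of all genes. From 6d to 12d 14 rose and 3 fell, 26.98% beside 26.4% of all genes.

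Among pump regulators, Sln, which encodes the SERCA inhibitor sarcolipin, was 2.88, 0.47 and 1.43 CPM in the Col vehicle group and 91.8, 313 and 147 CPM at 6d. Its log2 fold change was 6.76 ± 0.72 (adjusted p = 0.00246), the largest in these lists. At 12d Sln was 9.14, 4.34, 11.3 and 138 CPM, with mouse 4 again at the level of 6d. Atp2a3, a SERCA of non-muscle cells, fell at 6d (-3.27 ± 0.55, adjusted p = 0.00899) and rose at CFA 5d (2.89 ± 0.40, adjusted p = 0.0397). In Col vehicle mice 1 to 3 Atp2a3 was 43.8, 249 and 133 CPM, beside salivary gland levels of 65.8, 54529 and 19054 CPM, and the part of these in its changes was not tested.

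Around the voltage sensor, Stac3, an adaptor needed for its coupling, fell at 6d by 1.20 on the log2 scale (SE 0.27, adjusted p = 0.0199), and the gamma subunit Cacng6 fell at 2d (-1.69 ± 0.31, adjusted p = 0.0483) and at 6d (-1.59 ± 0.26, adjusted p = 0.00790). Of the release channel partners, 1 of 13 rose at 6d, Sepn1 (selenoprotein N, 0.99 ± 0.24, adjusted p = 0.0257), and 3 fell, Ryr2, Calm3 and Itpr1. Of all genes, 14.0% were called higher and 13.3% lower there. Ryr2 was at most 1.25 CPM in either group. Ryr3, a minor release channel of developing muscle, was 1.40, 3.02, 4.76 and 2.51 CPM at 2d and rose to 10.7, 13.01 and 11.8 CPM at 6d (2.03 ± 0.37, adjusted p = 0.0208). Against vehicle at 6d Ryr3 was not called. It was also higher at CFA 5d (11.8 to 19.3 CPM) than at CFA 1d (3.57 to 6.71 CPM), by 1.48 ± 0.30 (edgeR's quasi-likelihood test, adjusted p = 0.0315).

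In the triad list, Speg, a triad kinase, fell at 6d (-0.85 ± 0.26, adjusted p = 0.0452), and 0 of 11 genes rose. Stim1, the store calcium sensor, fell at 6d (-0.81 ± 0.22, adjusted p = 0.0309) and rose from 6d to 12d (0.66 ± 0.20, adjusted p = 0.0451). In signalling, Mylk2, the skeletal myosin light chain kinase, fell from 1461, 1767 and 1023 CPM in vehicle to 333, 98.8 and 287 CPM at 6d (-2.57 ± 0.49, adjusted p = 0.0123). The kinase subunits Camk2a (-1.23 ± 0.31, adjusted p = 0.0274) and Camk2g (-1.20 ± 0.24, adjusted p = 0.0148) also fell at 6d, whereas Camk2d rose (1.17 ± 0.27, adjusted p = 0.0208).

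Across the 31 libraries, which share the vehicle groups and differ in depth and tissue make-up, Pearson's r of log2 CPM between members ran from -0.87 for Atp2a2 with Jph2 to 0.96 for Atp2a1 with Cacna1s. Casq2 stood apart from the fast members, with r of -0.06 with Atp2a1, -0.05 with Pvalb and 0.00 with Cacna1s. Over the same 31 libraries, the genes most like these members among 13500 genes included Hrc, which encodes a calcium-binding protein of the sarcoplasmic reticulum, for Casq1 (r = 0.96), Pygm, the muscle glycogen phosphorylase, for Atp2a1 (0.98), and Rtn2 for Pvalb (0.97). Tmem38a, the counter-ion channel of the sarcoplasmic reticulum, was among the 3 most like genes of both Pvalb (0.96) and Cacna1s (0.97). Hfe2 was nearest to Jph2 (0.97), Pbxip1 to Cacng1 (0.93) and 5730455P16Rik to Trdn (0.88). Casq2 was most like Pamr1 (0.90), and Atp2a2 most like Twf1 (0.92).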

How the data were processed

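Per the labels, libraries were stranded poly(A) libraries of the masseter muscle, and the processing notes of the submitters name bcl2fastq, TopHat2, HTSeq and genome build mm9. The authors deposited 1 table of raw read counts per gene symbol and mouse, not normalized. Whether counting used the strand is not given in the sources used here. Lines that name no gene held 6.69 to 22.5% of reads without a feature and were left out of library sizes and tests.

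Counts of genes with at least 10 reads in at least 3 compared libraries were scaled by TMM and tested with the quasi-likelihood test of edgeR 4.0.16 (R 4.3.3), fitting only the groups compared and no covariate. The Benjamini-Hochberg adjustment ran over all tested genes. An SE is the size of the log2 fold change over the root of its F statistic. CPM are TMM-scaled, and RPKM used exon lengths of GENCODE vM1 (mm9). The members and the gene lists were chosen with earlier results of these data known. All members were tested in every comparison, but the values of only some are printed for some comparisons. Of the other lists, up to 3 called genes with the largest log2 fold change per direction could be named. Not all of these are named. Isoform ratios were compared by exact permutation tests (scipy). Scripts were tested on simulated data.

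Alternatives were DESeq2 1.42.0, its size factors, no count filter, the study's criteria (adjusted p under 0.05, fold change over 2, mean RPKM over 1), 1 fit shared by the 31 libraries, a reference that pools both sets of vehicle mice, a replicate block, myofibre scaling and each mouse left out. A shared replicate number does not mean a shared animal. Same-numbered mice deviated together (every r over 0.1) only for CFA 1d against vehicle (r = 0.16, 0.26 and 0.59) and for the vehicle groups (0.20, 0.12 and 0.68), where the block called 0 members, as without it. P-values measure the spread between these mice. No 2 libraries were identical among 465 pairs. Results for 1 other gene are not reported here.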

Additional observations from a re-analysis of the deposited data

Results flagged for a closer look

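Mouse 4 of 10U Col 2d lay far from the other 3 mice of its group in 7 genes, judged by its gap to the nearest mouse against the range of the group. It was highest for Casq1 (1797 CPM, others 519 to 642 CPM), Ryr1 (2413 CPM, others 1515 to 1551 CPM), Atp2a1 (15414 CPM, others 3346 to 5070 CPM), Cacna1s (715 CPM, others 260 to 270 CPM), Trdn (768 CPM, others 366 to 396 CPM) and Jph2 (488 CPM, others 154 to 184 CPM), and lowest for Atp2a2 (171 CPM, others 313 to 341 CPM).

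Outside that mouse, 3 values stood apart in the same way. Casq2 was 231 CPM in mouse 4 of 10U Col 12d (others 48.7 to 65.0 CPM) and 87.5 CPM in mouse 1 of 0.2U Col RPC (others 26.1 to 34.9 CPM), and Ryr1 was 3569 CPM in mouse 4 of 0.2U Col RPC (others 2396 to 2573 CPM). With 40 sets of 4 mice examined, about 2 such values arise by chance, and 10 were found. The sets are not independent, since the 10 genes were read from the same libraries.

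Casq2 differed between times and treatments. It was higher at 10U Col 6d than at 2d by 2.62 on the log2 scale, and its difference from vehicle was larger at 10U Col 6d than at CFA 5d by 3.11, both past the test of the difference itself in edgeR's quasi-likelihood test.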

How the results depend on the processing

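The 0 members called at 10U Col 2d became 8 under DESeq2 (18.3% of all genes called), the shared fit (31.8%), the pooled vehicle groups (34.4%) and the replicate block (31.3%), and 5 under myofibre scaling (72.4%). At 10U Col 6d the 4 calls became 8 under DESeq2 (28.9% of all genes) and the pooled vehicle groups (40.0%), 7 in the shared fit (32.4%) and 1 under the replicate block (10.3%). At 12d, DESeq2 (4.95%) and the shared fit (5.01%) called 1. For 6d against 2d, 2 were called by DESeq2 (15.1%) and 3 under the block (15.2%); for 12d against 6d, 3 by DESeq2 (29.3%), 1 in the shared fit (20.7%) and 9 under the block (49.2%). DESeq2 called 1 at CFA 5d (5.13%), 1 in 1C (2.84%) and 2 in RPC (2.12%). The numbers do not pair these mice by design, and the block changed no other count of calls. With each mouse left out, the counts ranged from 0 to 9 at 2d, 1 to 5 at 6d, 0 to 6 for 6d against 2d, 0 to 8 for 12d against 6d and 0 to 2 at CFA 5d (2 without CFA vehicle mouse 3).

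Median log2 fold changes of the members under myofibre scaling were 0.080 at CFA 5d, -0.047 in 1C, 0.013 in RPC, 0.030 at 2d, 0.075 at 6d and -0.079 for 12d against 6d. Under the replicate block the median for 6d against 2d was 0.87. Left-out mice gave medians of -0.83 to -0.33 in 1C, -1.20 to -0.80 at 6d and 0.33 to 0.89 for 6d against 2d. Signs turned under myofibre scaling for Casq2 (1.11) and Trdn (1.20) at 2d and Cacna1s (0.10) and Cacng1 (0.95) at 6d, by the construction of that scaling. Of genes called in neither fit, 36 values changed sign under these alternatives and 41 with a mouse left out.

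Groups of 3 or 4 mice limit every comparison. Calls for 10U Col 2d against vehicle and for 12d against 6d turn on 1 mouse each, salivary gland reads differ between libraries, and the 10U libraries were counted with more ambiguous reads than their vehicle group.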
